A study of Danio rerio with 6 samples.

Results

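Among the open regions of zebrafish embryos at 50% epiboly, 539 pairs of neighbouring regions lay 80 to 250 bases apart, a spacing of about the length of DNA on 1 nucleosome. They stood away from other regions found in all 6 samples. The peaks of all 6 samples were merged where they shared at least 1 base, and regions with a peak in each of the 6 lists were kept on chromosomes 1 to 25, without chromosome 4 from position 27000000 on. The pairs were selected on measured positions, since the rule used the presence and the edges of the peaks in these 6 lists. Pairs of consecutive regions entered when the gap from the end of one to the start of the next was 80 to 250 bases and no further such region lay within 3000 bases of either. The 539 pairs made up 1.85% of the 29200 pairs of consecutive regions on these chromosomes and held 1078, or 3.69%, of the 29225 regions. In the whole series, 30071 of 85003 merged regions had a peak in all 6 lists.

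The samples were whole AB Wild Type embryos, 150 per exposure, collected at 5.5 hours post fertilization. Of the 6 exposures, 3 were controls in 0.05% DMSO, the solvent, and 3 received 5 μM PF-06726304 acetate, an inhibitor of the histone methyltransferase Ezh2 (named Ezh2i), each from the 2-cell stage on. Chromatin accessibility was profiled with ATAC-seq, in which a transposase cuts and tags DNA where it can reach it. The 6 lists were called from 5894731 to 6877909 fragments per sample and held 48291 to 57178 peaks, and whole embryos mix all cell types of the stage, so a lower height cannot be told apart from fewer cells with the region open.

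A nucleosome is a stretch of DNA wrapped around a core of histone proteins, and the DNA between neighbouring nucleosomes is called linker. Transposase cuts fall mostly in linkers and in stretches cleared of nucleosomes, such as active promoters and enhancers, so that a nucleosome flanked by open DNA on each side can leave a pair of close peaks. Ezh2 is the catalytic subunit of Polycomb repressive complex 2, which methylates histone H3 at a lysine of its tail at silenced genes. The peaks were called on short fragments, with a fragment size of 75 to 79 bases in the 6 samples, as the headers of the lists give it. The study's methods also speak of a longer fragment length that takes in a nucleosome, which these headers do not show, and with such fragments a gap and a height would mean something else. Nucleosome occupancy in the gaps was not measured. The name of the pairs therefore rests on their spacing alone. No gene is named for a pair, because no annotation of the GRCz11 build was used here.

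The spacing of neighbouring regions had a high at this distance and a second one further out. In bins of 20 bases, the merged gaps were most frequent at 120 to 139 bases, with 120 pairs, fell to 21 pairs at 220 to 239 bases and rose again to 64 pairs at 320 to 339 bases. These counts take in all pairs with no further region near, and the rule chose the members by this gap, so they are a description. In the single lists, before any merging, consecutive peaks were most frequent at 140 to 159 bases in control 3 and Ezh2i 1 and at 160 to 179 bases in the other 4 samples. The second high came at 340 to 359 or 360 to 379 bases, 180 bases after the first in Ezh2i 2 and Ezh2i 3 and 200 bases after it in the other 4. The smallest gap within a list was 80, 81 and 78 bases in the controls and 78, 80 and 77 bases in Ezh2i. It went with the fragment size of the list, at 78, 79 and 76 bases in the controls and 76, 78 and 75 in Ezh2i. The part of the fragment size in the lower edge of the distribution was not tested.

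**Figure D1:**
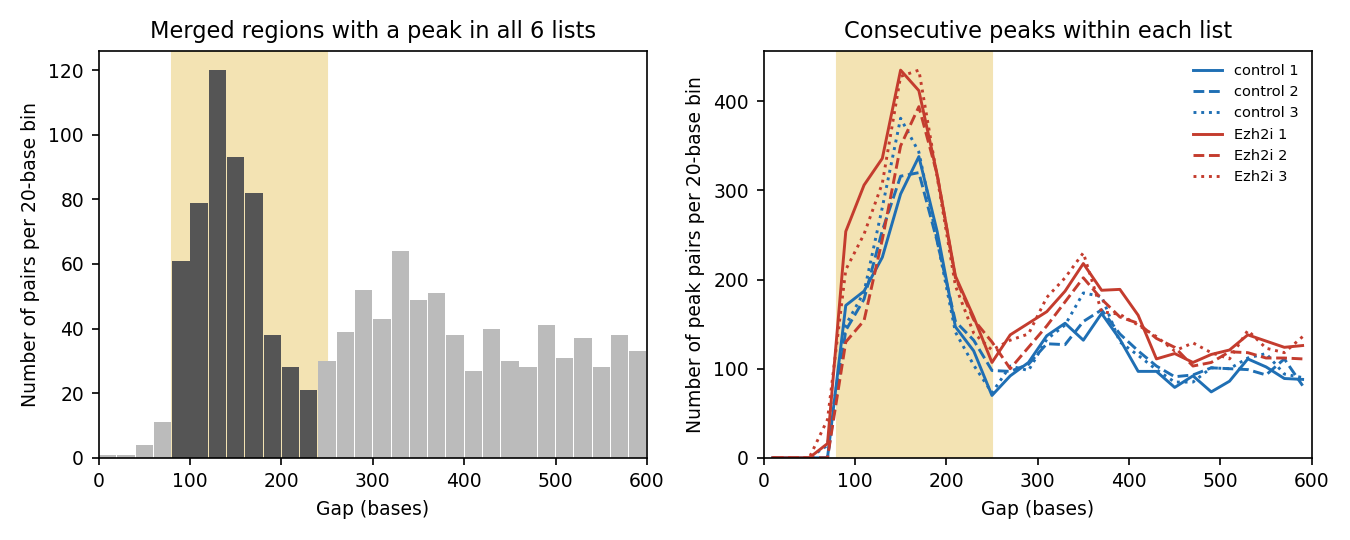
Number of neighbouring pairs by gap in 20-base bins, for merged regions present in all 6 lists with no further region within 3000 bases (left, dark bars for the bins of the members) and for consecutive peaks within each list (right, 1 line per sample, blue for controls and red for Ezh2i); the shaded band is the window of 80 to 250 bases. The merged gaps peak at 120 to 139 bases with 120 pairs, and each list shows a first high at 140 to 179 bases and a second at 340 to 379 bases.

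The members' merged gap had a median of 141 bases, with a 25th to 75th percentile of 119 to 171 bases. The regions themselves were short, with a median length of 184 bases (94 to 741), and a pair spanned 348 to 1017 bases with a median of 536. The distance between the summits of the paired peaks, the points of highest fragment pileup, averaged 326 bases at the median pair (25th to 75th percentile 288 to 399, range 214 to 848). Summit distances were most frequent in the bin of 280 to 299 bases, with 79 pairs. The summits thus lay about as far apart as the gap and 1 region length together.

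At the lower limit of the rule, 29 members had a gap of less than 90 bases, with a median height of 28.1 fragments, and 7 pairs were left out with a gap at most 10 bases under the limit, with a median height of 29.8. At the upper limit, 17 members lay in the last 10 bases of the window, with a median height of 26.2 fragments, and 16 pairs lay in the next 10 bases, with a median height of 32.7. A further region stood within the 500 bases outside the limit of 3000 bases at 14 members, with a median height of 39.2, and within the 500 bases inside it at 18 pairs left out, with a median height of 30.0.

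Positions were repeatable between samples at most pairs, which the rule favours, since it kept only regions merged from peaks of all 6 lists. No spread of other pairs is given for comparison. Over the 6 samples the SD of the gap was 16.1 bases and that of the summit distance 19.9 bases at the median pair. The gap SD was at most 10 bases at 121 pairs and over 50 bases at 48 pairs. Because merging takes the outermost edges, gaps in single lists were as wide as the merged gap or wider: at 414 pairs the gap was at most 250 bases in each list, and at 125 it was over 250 bases in at least 1 list, up to 484. Of the 1078 member regions, 1049 held 1 peak in every list and 29 held more in some list.

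The pairs at the limits of the window show both kinds of behaviour. The pair at chr20:10487572-10488035, with a merged gap of 80 bases, had gaps of 80, 164 and 147 bases in the controls and 160, 158 and 140 bases in Ezh2i. Only control 1 was near 80 bases there, while the summit distance kept between 266 and 283 bases in the 6 samples. The pair at chr3:29469079-29469712, also with a merged gap of 80 bases, had gaps of 236, 131 and 265 bases in the controls and 80, 270 and 213 bases in Ezh2i. At chr11:296278-297124, with a merged gap of 80 bases, gaps ranged from 138 bases in Ezh2i 1 to 373 bases in Ezh2i 2, and summits lay 449 to 623 bases apart. The smallest merged gaps thus came from a far-reaching peak in 1 or a few lists. At the upper limit, the pair at chr4:20394752-20395426 had gaps of 317, 295 and 274 bases in the controls and 250, 265 and 276 bases in Ezh2i, with a merged gap of 250 bases. The pairs at chr15:35211782-35212633 and chr2:11648087-11648811 had a merged gap of 248 bases, with gaps of 254 to 300 and 283 to 416 bases in single lists.

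The members were spread over all 25 chromosomes. Per 1000 kept regions, chromosome 24 held the fewest pairs (10 pairs, 11.1 per 1000) and chromosome 15 the most (28 pairs, 27.6 per 1000). A region found in fewer lists lay inside the gap of 1 pair only, and 43 pairs (7.98%) had one within 250 bases outside.

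Height was read as the fragment pileup at the summit of the tallest peak of a region in a list. The shorter region of a pair had a mean height over the 6 samples of 22.2 fragments at the median (8.67 to 117), and the taller one 36.8 fragments (11 to 187). At 210 pairs the shorter region averaged under 20 fragments, where counting error alone is large. The 5 pairs with the tallest shorter region show how heights repeat where relative counting error is lowest. They do not stand for the other pairs in this. At chr16:11150843-11151766, with a gap of 222 bases, the lower-coordinate region had 106, 122 and 136 fragments in the controls and 107, 117 and 116 in Ezh2i. Its higher-coordinate partner had 154, 148 and 143 fragments in the controls and 129, 127 and 130 in Ezh2i. The higher-coordinate region was the taller in all 6 samples, and its heights in the controls lay above those in Ezh2i with no overlap. Its difference of -0.26 ± 0.18 (SE) on the log2 scale did not pass in limma (Benjamini-Hochberg adjusted p = 0.862). Height differences with an SE, here and below, come from quantile-normalized log2 heights. The printed fragments and the overlaps of heights are not scaled for depth. The share of all regions whose heights do not overlap between exposures was not counted. Separations in height, here and below, therefore have no background share to be read against.

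At chr17:39940882-39941898, with a gap of 105 bases, the lower-coordinate region had 83, 104 and 115 fragments in the controls and 58, 95 and 71 in Ezh2i, and the higher-coordinate region 148, 174 and 147 against 143, 199 and 112. The exposures overlapped for each of its regions. At chr2:52431329-52432201, with a gap of 124 bases, the lower-coordinate region was the taller, with 125, 109 and 80 fragments in the controls and 113, 152 and 132 in Ezh2i. Its partner had 66, 69 and 61 fragments in the controls and 94, 97 and 86 in Ezh2i, with no overlap, and this difference of 0.41 ± 0.18 (SE) did not pass in limma either (adjusted p = 0.793). At chr21:3897430-3898015, with a gap of 137 bases, heights were 119, 129 and 106 against 127, 108 and 114 in the lower-coordinate region and 88, 84 and 71 against 66, 60 and 67 in the higher-coordinate one. Only the latter separated the exposures, lower in Ezh2i by 0.42 ± 0.17 (SE, adjusted p = 0.772 in limma). At chr23:36305976-36306602, with a gap of 231 bases, the heights were 48, 78 and 69 against 90, 75 and 74, and 94, 100 and 85 against 114, 107 and 97, with overlap in both regions.

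**Figure D2:**
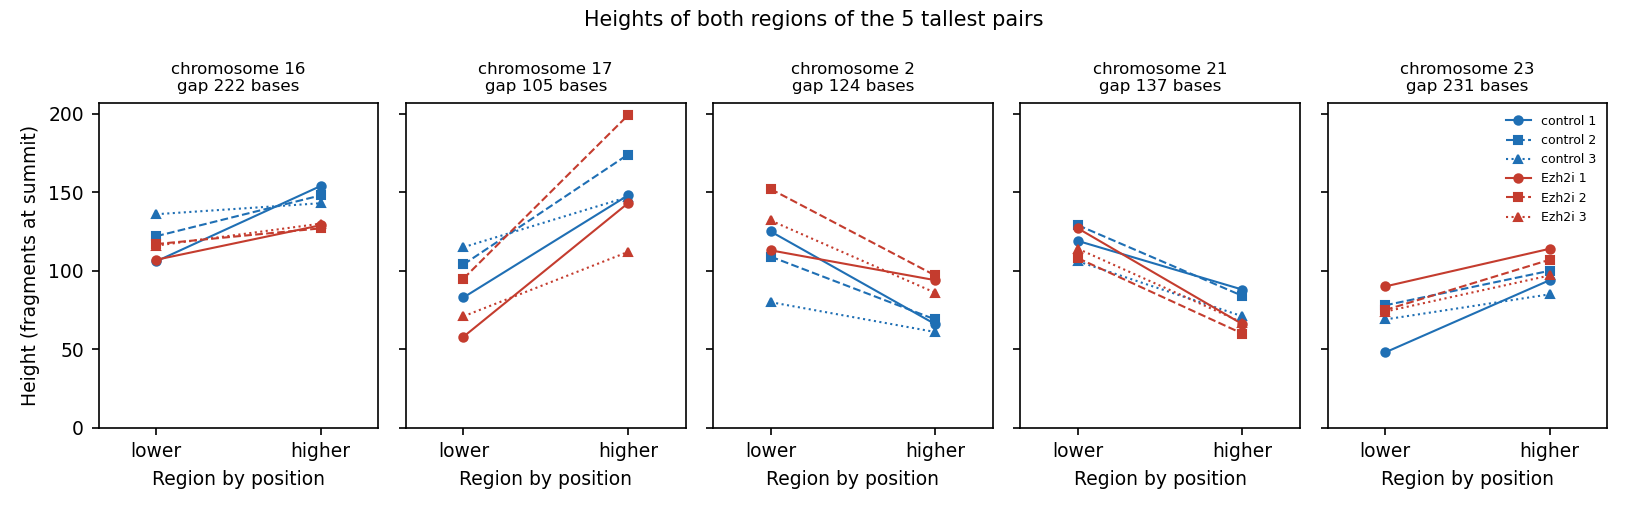
Heights in fragments at the summit of the lower- and the higher-coordinate region of the 5 pairs with the tallest shorter region, 1 line per sample, blue for controls and red for Ezh2i. In each of these 5 pairs, picked for their height, the same region is the taller in all 6 samples, and the lines of both exposures run in the same direction. Over all 539 pairs the same region is the taller in all 6 samples at 312 (57.9%).

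The height balance of a pair was taken as log2 of the height of the higher-coordinate region over that of the lower-coordinate region within a sample, so that depth cancels. Most pairs were moderately uneven. The taller region had 1.53 times the height of the shorter one at the median pair (25th to 75th percentile 1.22 to 2.08), 125 pairs were within 1.2-fold, 155 (28.8%) were over 2-fold and 18 over 4-fold. Neither genomic side was favoured: among the 312 pairs (57.9%) with the same region taller in all 6 samples, it was the higher-coordinate one at 158 and the lower-coordinate one at 154. At the remaining 227 pairs the taller region changed or tied between samples, and their absolute mean balance was 0.23 at the median, against 0.99 at the 312.

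The balance belonged to the locus more than to the sample. Its SD between pairs was 0.93, while its SD between replicates of an exposure was 0.38, below the 0.41 expected from counting fragments. The rule required a peak in every list, and its part in this low spread was not tested. Between any 2 samples, Pearson's r of balance over the 539 pairs was 0.83 to 0.88, with a mean of 0.855 ± 0.013 (SD) for the 6 sample pairs within an exposure and 0.856 ± 0.014 (SD) for the 9 between exposures. These samples share the loci, so the correlations describe repeatability and carry no test. With both regions averaging at least 20 fragments, the SD between replicates was 0.34 and 200 of 329 pairs kept the same taller region in all 6 samples. With a shorter region under 20 fragments, it was 0.43 and 112 of 210 pairs did.

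The most uneven pairs, picked by their mean balance over the 6 samples, were uneven in every sample, which follows largely from that choice. At chr3:11827553-11828400, with a gap of 244 bases, the lower-coordinate region had 26, 28 and 25 fragments in the controls and 36, 35 and 33 in Ezh2i, and the higher-coordinate region 195, 192 and 150 against 205, 169 and 204. The balance there was 2.76 ± 0.16 for the controls and 2.47 ± 0.18 for Ezh2i (SD of 3 samples). The shorter region was higher in each Ezh2i sample than in any control, but its difference of 0.25 ± 0.18 (SE) on the log2 scale did not pass in limma (adjusted p = 0.863). At chr20:51386516-51387006, with a gap of 135 bases, the order was reversed, with 117, 130 and 121 against 134, 107 and 155 fragments in the lower-coordinate region and 15, 15 and 22 against 22, 23 and 22 in its partner. Its balance was -2.85 ± 0.34 for the controls and -2.55 ± 0.30 for Ezh2i (SD of 3 samples).

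The other pairs named for their unevenness were picked by the same mean. The mean balance over the 6 samples was 2.45 at chr3:18755733-18756296 and 2.11 at chr9:38023146-38023802, where the higher-coordinate region was the taller. It was -2.64 at chr17:956962-957734 and -2.50 at chr11:45420296-45420830, where the lower-coordinate region was. In all of these the taller region was the same one in 6 of 6 samples, which also follows largely from the choice.

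Balance and height showed little rank order with the gap inside the window, though the widest gaps had the lowest absolute balance. The absolute balance was 0.65 at the median of the 140 pairs with a gap of 80 to 119 bases, 0.58 at the 213 pairs of 120 to 159 bases, 0.68 at the 120 pairs of 160 to 199 bases and 0.48 at the 66 pairs of 200 to 250 bases. Over the 539 pairs, Spearman's rho of gap with absolute balance was -0.03, and rho with the height of the shorter region was -0.03. The heights of paired regions went together across loci, with r = 0.38 of their log2 mean heights over the 539 pairs, 0.34 over 1148 wider pairs and 0.02 over 19706 consecutive pairs more than 10000 bases apart. The points of these correlations share libraries, and neighbours share local sequence, which was not examined here.

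The pairs were compared with 1148 wider pairs, whose gap was over 250 and up to 1000 bases, and with 21065 solitary regions, which had no other shared region within 3000 bases. Each value is the median over loci within a sample, and the 6 samples were compared with a two-sided exact sign-flip permutation test, whose smallest p is 0.03125, adjusted over 7 comparisons. The absolute balance was 0.65 to 0.68 in the pairs and 0.69 to 0.79 in the wider pairs. The difference was -0.06 ± 0.03 (SD) and had this sign in 6 of 6 samples (exact adjusted p = 0.0365). All 6 samples share the loci, and balance repeated between them. A chance difference between the sets of loci would therefore also keep its sign across samples. The test thus cannot tell whether partner heights are more alike at the closer spacing. The medians describe these loci only, where the absolute balance was slightly lower in the pairs. Peaks were shorter in the pairs, at 146 to 155 bases against 153 to 165 bases (-9.58 ± 1.43 bases, SD). This is given as a description with no test, because the peak edges set the gap by which the pairs were chosen.

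The height per 1000000 fragments was 0.07 ± 0.05 (SD) lower on the log2 scale than in wider pairs, in 5 of 6 samples (exact adjusted p = 0.0625). With regions averaging at least 20 fragments, a floor set on the quantity compared, this was -0.08 in 6 of 6 samples (exact adjusted p = 0.03125). The local background was 0.161 to 0.189 fragments per 1000000 in the pairs and 0.181 to 0.208 in the wider pairs, lower in 6 of 6 samples (exact adjusted p = 0.0365). It was worked out from height and fold enrichment and averages 10000 bases, which take in the region and its partner. A difference in background is therefore bound to height and peak length, and the test does not set it apart from them. Against solitary regions, the height of paired regions was 0.32 ± 0.05 (SD) higher on the log2 scale, in 6 of 6 samples. This is given with no test, because a region entered only when called over its local background in every list. Height is thereby tied to the rule, and the same tie bears on height against wider pairs. The difference from solitary regions was 0.06 ± 0.03 (SD) among regions averaging at least 20 fragments. There the same floor on height in both sets narrows any difference in height. The peaks of the pairs were 20.6 ± 4.03 bases shorter than solitary ones (SD), again with no test. The background was 0.08 fragments per 1000000 higher than around solitary regions, and it averages 10000 bases, which take in the partner region. The 6 samples share the loci, so these tests speak of the samples, not of other loci. A low p in them shows only that a difference repeats between samples measured at the same loci.

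The design asked whether inhibition of Ezh2 changed accessibility, and for these pairs that meant their gap, summit distance, balance and height. None of these differed between exposures beyond the spread of the 3 replicates. The median gap in single lists was 172, 169 and 170 bases in the controls and 168, 172 and 170 bases in Ezh2i (difference -0.333 bases, two-sided exact permutation p = 1). The median summit distance was 320, 322 and 328 bases in the controls and 325, 327 and 327 bases in Ezh2i (difference 3 bases, exact permutation p = 0.4). In both measures the exposures overlapped. Single controls weighed on the summit distance, whose difference was 5.33 bases with no overlap without control 3 (exact permutation p = 0.1, the smallest possible) and 1.33 bases without control 1.

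The median absolute balance was 0.68, 0.68 and 0.65 in the controls and 0.68, 0.65 and 0.67 in Ezh2i (exact permutation p = 0.7). The median height per 1000000 fragments was 4.58, 4.36 and 3.78 in the controls and 4.53, 4.24 and 4.65 in Ezh2i (exact permutation p = 0.6), with control 3 the lowest of the 6. The difference of 0.235 was 0.00438 without control 3, 0.404 without control 1, 0.145 without Ezh2i 3 and 0.437 among pairs with both regions averaging at least 20 fragments. With 3 samples against 3 the smallest possible p is 0.1, so no p of these tests can reach 0.05. Nothing in the labels says whether the exposures came from separate spawnings, so these p-values measure the spread between these samples only.

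The mean balance of each pair in Ezh2i followed that in the controls, with r = 0.947 over the 539 pairs. The difference between exposures was between -0.50 and 0.47 for the middle 90% of pairs, from the 5th to the 95th percentile, and had a median of -0.00447. At 53 pairs the taller region by group mean differed between exposures, and at each of these the smaller of the absolute group means was at most 0.33. In the fit of all 29200 consecutive pairs with limma, 0 of 539 members passed for balance (smallest Benjamini-Hochberg adjusted p = 0.752), as did 0% of all pairs. At an unadjusted p under 0.05 there were 12 members (2.23%, 8 higher and 4 lower in Ezh2i), against 6% of all pairs. The exposures did not overlap at 50 members (9.28%, 24 higher and 26 lower), against 11% of all pairs. Neither share was above that of all pairs, and their differences from it were not tested.

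**Figure D3:**
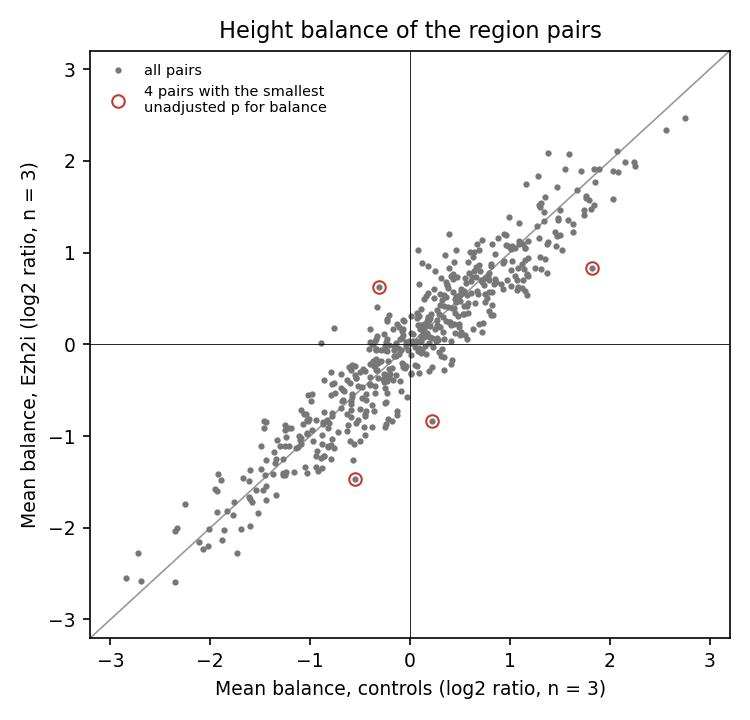
Mean height balance of each of the 539 pairs in controls (x axis) and Ezh2i (y axis), as log2 of the higher- over the lower-coordinate region, n = 3 samples each; the diagonal marks equal balance and red rings mark the 4 pairs with the smallest unadjusted p. The points follow the diagonal (r = 0.947).

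The 4 pairs with the smallest unadjusted p for balance show what the largest differences rest on. Separation of the exposures at these pairs, in balance and in the heights that make it up, follows largely from choosing them by that p. At chr14:37580665-37581124, with a gap of 163 bases, the lower-coordinate region had 12, 20 and 12 fragments in the controls and 21, 26 and 23 in Ezh2i, and the higher-coordinate region 14, 18 and 18 against 12, 13 and 14. The balance was 0.22 ± 0.37 (SD) in controls and -0.84 ± 0.14 in Ezh2i. The exposures did not overlap, with a difference of -1.06 ± 0.29 (SE, limma adjusted p = 0.752), at heights of 12 to 26 fragments.

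At chr8:20230297-20230869, with a gap of 115 bases, the lower-coordinate region had 29, 36 and 31 fragments in the controls and 53, 56 and 42 in Ezh2i, while the higher-coordinate region had 107, 122 and 109 against 91, 81 and 96. This was the tallest of the 4, and both regions separated the exposures, in opposite directions. The balance was 1.82 ± 0.06 for the controls and 0.84 ± 0.33 for Ezh2i (SD of 3 samples), a difference of -0.98 ± 0.29 (SE, limma adjusted p = 0.752). At chr16:17252678-17253098, with a gap of 104 bases, heights were 27, 23 and 23 against 18, 14 and 20 in the lower-coordinate region and 22, 20 and 17 against 37, 21 and 24 in its partner, and the difference in balance was 0.94 ± 0.29 (SE). The taller region was the lower-coordinate one in 3 of 3 controls and the higher-coordinate one in 3 of 3 Ezh2i samples. At chr8:22492439-22493096, with a gap of 247 bases, heights were 38, 33 and 29 against 43, 30 and 54, and 24, 21 and 23 against 18, 13 and 14, with a difference of -0.92 ± 0.30 (SE). Neither of the last pairs passed in limma (adjusted p = 0.752 for each).

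**Figure D4:**
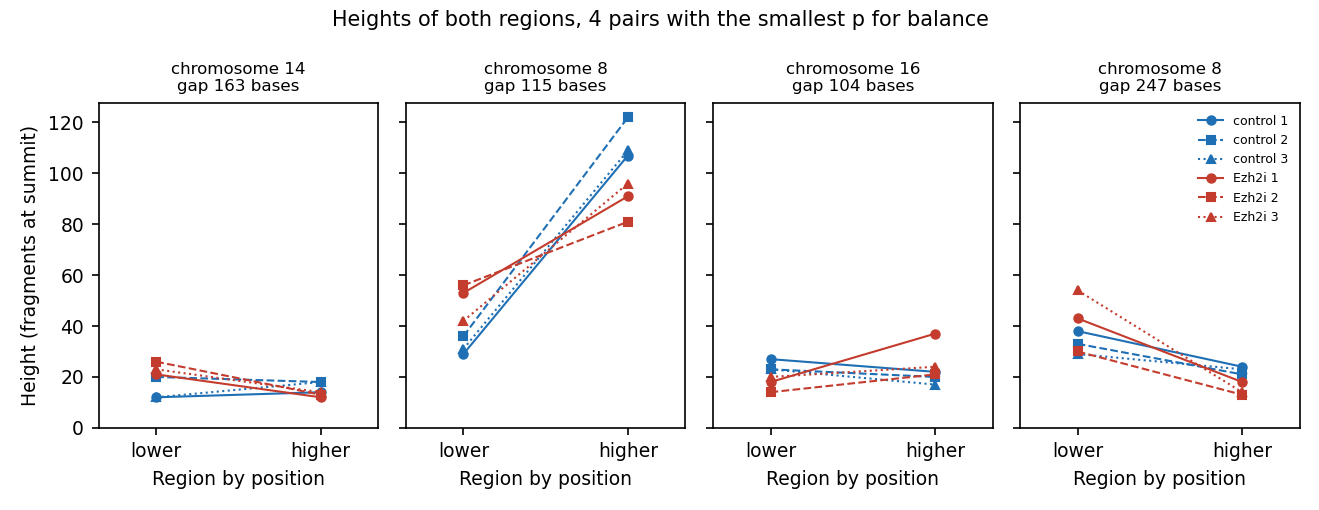
Heights in fragments at the summit of the lower- and the higher-coordinate region of the 4 pairs with the smallest unadjusted p for balance, 1 line per sample, blue for controls and red for Ezh2i. In the second panel, on chromosome 8 with a gap of 115 bases, the lower-coordinate region has 29 to 36 fragments in controls and 42 to 56 in Ezh2i and its partner 107 to 122 against 81 to 96; the other 3 panels hold heights of 12 to 54 fragments.

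For height itself, limma on quantile-normalized log2 heights of all 30071 shared regions called 0 of the 1078 member regions (smallest adjusted p = 0.746) and 0% of all regions. At an unadjusted p under 0.05 there were 63 member regions (5.84%, 27 higher and 36 lower in Ezh2i), close to the 6.24% of all regions. With heights per 1000000 fragments there were 52 (4.82%, 45 higher and 7 lower), against 6.66% of all regions (1756 higher and 248 lower). On that scale the median of all regions was shifted by 0.12 and that of the members by 0.11.

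The 4 member regions with the smallest unadjusted p for height separated the exposures, which follows largely from choosing them by that p. The higher-coordinate region of the pair at chr7:17953570-17954064 had 11, 15 and 13 fragments in the controls and 24, 25 and 26 in Ezh2i (0.81 ± 0.19, SE, on the log2 scale). The lower-coordinate region at chr11:20987854-20988323 had 53, 52 and 58 fragments in the controls and 41, 28 and 35 in Ezh2i (-0.79 ± 0.20, SE), while its partner had 35, 47 and 49 against 46, 44 and 46. The higher-coordinate region at chr9:53421968-53422361 had 9, 12 and 12 fragments in the controls and 24, 18 and 21 in Ezh2i (0.81 ± 0.20, SE). The remaining one was the higher-coordinate region at chr8:22492439-22493096, described above for its balance (-0.74 ± 0.19, SE). The limma adjusted p was 0.746 for each of the 4. Over the 539 pairs, the exposure differences of partner regions were correlated with r = 0.25, against 0.22 in wider pairs and 0.08 in pairs over 10000 bases apart, a description over loci that share the 6 libraries. For deviations between replicates, r of partner regions was 0.11 in the pairs, 0.14 in wider pairs and 0.07 in pairs over 10000 bases apart.

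For the gap, 0 members passed in limma (smallest adjusted p = 0.552), against 2 of all 29200 pairs (0.00685%). At an unadjusted p under 0.05 there were 16 members (2.97%, 3 wider and 13 narrower in Ezh2i), against 5.92% of all pairs (317 wider and 1412 narrower). The mean gap was narrower in Ezh2i at 305 members and wider at 230, with a median difference of -2.33 bases, while all consecutive pairs had a median of -6 bases. The exposures did not overlap at 41 members (7.61%, 12 wider and 29 narrower), against 10.8% of all pairs (651 wider and 2488 narrower). Narrower gaps in Ezh2i were thus not particular to the members.

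For the summit distance, 0 members passed in limma (smallest adjusted p = 0.974), against 2 of all pairs (0.00685%), and 7 (1.30%) had an unadjusted p under 0.05, against 4.71% of all pairs. Non-overlap occurred at 39 members (7.24%), against 8.97%. The pair with the smallest p, at chr7:18470830-18471431, had summit distances of 453, 451 and 433 bases in the controls and 355, 349 and 416 bases in Ezh2i, a difference of -72.3 ± 20.7 bases (SE). At chr14:33976358-33976757 they were 299, 295 and 285 against 259, 253 and 249 bases (-39.3 ± 11.7, SE), and at chr10:9689051-9689530 they were 287, 276 and 299 against 327, 368 and 329 bases (54.0 ± 16.1, SE). The exposures did not overlap at these pairs, which follows largely from choosing them by p. The limma adjusted p was 0.974 for each. In the order given, the shorter region of these pairs averaged 15.8, 16 and 8.67 fragments over the 6 samples, so a summit there can rest on few fragments. One further pair, chosen after its values were seen, passed only without Ezh2i 3. At chr5:68782090-68782819 the summits lay 574, 582 and 573 bases apart in the controls and 342, 324 and 589 bases apart in Ezh2i, and the difference was -243 ± 14.3 bases (SE, limma adjusted p = 0.0448) without Ezh2i 3 and -158 bases (limma adjusted p = 0.974) with it.

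Counted in each list by itself, close peaks were more numerous in each Ezh2i list than in any control list, a difference that did not pass a test. Consecutive peaks 80 to 250 bases apart numbered 1780, 1788 and 1871 in the controls and 2480, 2028 and 2348 in Ezh2i. The exposures did not overlap, and the means of 1813 ± 50.4 and 2285 ± 232 (SD, n = 3 each) differed by 26.1%, with the smallest p the test can give (two-sided exact permutation p = 0.1, adjusted p = 0.25 over 20 quantities compared in this way). As a share of the peaks of the list they were 3.66%, 3.55% and 4.00% in the controls and 4.52%, 4.21% and 4.25% in Ezh2i (exact permutation p = 0.1). The lists of Ezh2i 1 and Ezh2i 3 were also the longest of the 6. The Ezh2i 2 list held 49817 peaks, against 50270, 52026 and 48291 in the controls. With each list limited to its 48291 strongest peaks, the counts were 1683, 1582 and 1871 against 1932, 1929 and 1809. The exposures then overlapped, and the difference fell from 472 to 178 (exact permutation p = 0.2).

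Presence in all 6 lists largely fixes how the peaks divide: the members had to be called in every list, so the division carries no test. The 539 pairs were found at this spacing 468, 476 and 458 times in the controls and 490, 465 and 467 times in Ezh2i. Close peaks with at least 1 partner in a region found in fewer lists numbered 809, 825 and 888 in the controls and 1507, 1064 and 1342 in Ezh2i. Peaks split within 1 shared region numbered 302, 288 and 332 against 252, 293 and 312.

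A difference of like size was found at wider spacing. Consecutive peaks over 250 and up to 1000 bases apart numbered 3238, 3433 and 3417 in the controls and 4283, 3993 and 4365 in Ezh2i, a difference of 25.3% with no overlap (exact permutation p = 0.1). For each of these there were 0.550, 0.521 and 0.548 close peak pairs in the controls and 0.579, 0.508 and 0.538 in Ezh2i. The ratio overlapped between exposures (0.539 ± 0.016 and 0.542 ± 0.036, SD, n = 3 each, exact permutation p = 1).

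**Figure D5:**
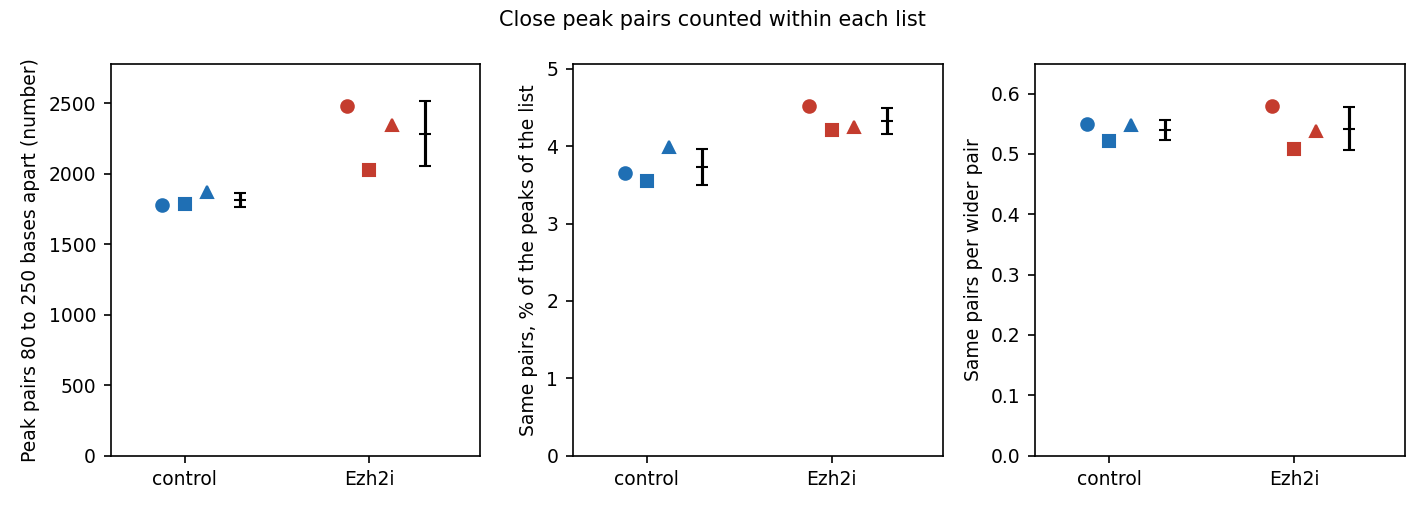
Consecutive peaks 80 to 250 bases apart in each list, as a number (left), as a percentage of the peaks of the list (middle) and per pair of consecutive peaks over 250 and up to 1000 bases apart (right); points are samples (circle, square and triangle for replicates 1, 2 and 3) and black bars the mean ± SD of 3 samples. The number is 1780 to 1871 in controls and 2028 to 2480 in Ezh2i, and the ratio overlaps between exposures at 0.521 to 0.550 and 0.508 to 0.579.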

How the data were processed

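ATAC-seq libraries of 3 control and 3 Ezh2i exposures were analysed from the peak lists that the authors deposited, 1 per sample. Per the file headers, the authors called peaks with MACS2 2.1.1.20160309 on paired short-fragment alignments to GRCz11, with no control library, a q-value limit of 0.001 and a local background over 10000 bases. The lists give, as deposited, the signal (fragment pileup) at each summit, the fold enrichment over the local background as a ratio, and -log10 p and q values. Positions are 1-based. Trimming with Trim Galore and alignment with Bowtie2 are named in the submitters' processing notes. A study test on read counts was not repeated, since the lists hold none, and a region missing from a list has no value there.

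Peaks were merged in Python 3.11.15 with pandas 2.3.3, and each pair's gap, summit distance and balance were read per list. Tables of all consecutive pairs and all shared regions were fitted with limma 3.58.1 in R 4.3.3 with Benjamini-Hochberg adjustment, without a pseudocount, since all heights were above 0. Single values per sample were compared with exact permutation tests written in Python with numpy 2.4.6. Counting error assumes that fragments are independent, and PCR copies were limited to 1 per position per the file headers. The members, lists and rules for named pairs were chosen with earlier results of these data known. Named pairs were the 5 with the tallest shorter region, the 3 smallest and 3 largest gaps, the 3 most uneven each way (both regions averaging at least 10 fragments), and those with the smallest unadjusted p for balance (4), summit distance (3) and height (4). Alternatives changed the merging, the gap window, the distance to a further region, the q limit, the height, the scaling, the block, the length of the lists and the samples.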

Additional observations from a re-analysis of the deposited data

How the results depend on the processing

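The number of pairs was 335 with a gap of 120 to 200 bases, 334 with no further region within 10000 bases, and 557 to 601 when selected anew with 1 sample left out. Medians and limma counts with 1 sample left out kept the 539 pairs selected from all 6 lists. The left-out sample thus still had a part in choosing them. The difference in median absolute balance, -0.00399 in the pairs as selected, changed sign with a gap of 120 to 200 bases (0.00945), with no further region within 1000 bases (0.00521) or 10000 bases (0.0290) and with fold enrichment in place of height (0.0200), and ranged from -0.0141 to 0.00480 when 1 sample was left out. The difference in median gap ranged from -1.33 to 0.667 bases when 1 sample was left out, with 0.5 bases without control replicate 1 and 0.667 without Ezh2i replicate 1, and was -1.67 bases with both regions averaging at least 20 fragments. The cause was not tested. Height against wider pairs passed only with regions averaging at least 20 fragments (-0.0817), a floor set on the height that was compared. For summit distance, 0 to 1 members passed in limma when 1 sample was left out, the 1 without Ezh2i replicate 3, where 16 of 29200 pairs passed. For balance, gap and height, 0 members passed under any alternative run. At an unadjusted p under 0.05, leaving out 1 sample gave 15 to 23 members for balance (2.78% to 4.27%, against 5.26% to 6.43% of all pairs), 10 to 20 for summit distance (1.86% to 3.71%, against 4.45% to 4.83%), 11 to 17 for the gap (2.04% to 3.15%, against 4.99% to 6.68%) and 46 to 87 for height (4.27% to 8.07%, against 4.81% to 7.86% of all regions). Fold enrichment gave 21 for balance (3.90%, against 5.51%). The difference in the number of close peaks within lists was 375 to 601 when 1 sample was left out, and, as a percentage of the peaks, 0.495 to 0.721 when 1 sample was left out and 0.381 with lists of equal length. These alternatives for the percentage were chosen after seeing the data, as were the following. Among peaks of at least 10 fragments, close peaks numbered 1457, 1484 and 1589 in the controls and 2071, 1711 and 1948 in Ezh2i, and over all sequences of the lists the difference was 484.

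The labels do not say whether a replicate number marks a shared spawning, and the numbers were not taken to pair the samples. Deviations in balance of samples with the same number had r = 0.10, -0.03 and -0.12 for numbers 1, 2 and 3. Balance cancels effects on a whole library, so these values cannot show whether the samples were paired. With the replicate block, 14 members for balance (2.60%, against 6.08% of all), 63 for height (5.84%, against 5.98%), 16 for the gap (2.97%, against 5.87%) and 12 for summit distance (2.23%, against 4.34%) had an unadjusted p under 0.05, and 0 passed after adjustment. Heights of 8.67 to 20 fragments limit the balance of 210 pairs, where its SD from counting was 0.49.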
